A study of Mus musculus with 4 samples.

Results

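The 10 genes described here encode core parts of the unfolded protein response of the endoplasmic reticulum (ER): Hspa5, Hsp90b1, Calr, Pdia4, Dnajb9, Sdf2l1, Herpud1, Ern1, Atf6 and Xbp1. They were chosen by name for this known function, with earlier results of these data known. All 10 of them were among the 37620 genes of the count table and passed the filter on low counts, which left 16264 genes for testing. The ER folds proteins bound for membranes and secretion. When unfolded proteins build up there, the sensors IRE1 (encoded by Ern1), ATF6 and PERK become active. IRE1 splices the Xbp1 mRNA so that it encodes an active transcription factor, ATF6 is cut to release another one, and both raise the transcription of ER chaperones and of genes for the disposal of misfolded proteins. PERK phosphorylates the translation factor eIF2, which lowers general translation and favours that of ATF4.

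RNA-seq of mouse embryonic stem cells (mESCs) compared 2 libraries of WT_CTCF with 2 of MUT_CTCF, to ask whether expression changes when CTCF, the architectural protein of chromatin loops, cannot carry O-GlcNAc at T668. Per the study's methods, both lines came from mESCs whose endogenous CTCF bears an auxin-inducible degron. Each line expressed an introduced CTCF, wild type in WT_CTCF and mutated at T668 in MUT_CTCF, and auxin removed the endogenous protein in both. For each line a clone was picked with an introduced CTCF level similar to the endogenous one, so clone and genotype cannot be told apart. The libraries are called WT 1, WT 2, MUT 1 and MUT 2 below.

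Total counts ran from 40524694 to 40977464 per library. Of the 16264 genes, edgeR's quasi-likelihood test called 253 higher and 262 lower in MUT_CTCF at a Benjamini-Hochberg adjusted p under 0.05, so that 49.1% of the calls were higher. With library sizes alone in place of TMM factors the calls were 260 and 152, 63.1% of them higher. The median log2 fold change over all genes tested was 0.0034. The Ctcf gene had 18485 ± 259 normalized counts in WT_CTCF and 19058 ± 378 in MUT_CTCF (SD, n = 2 each), and gene counts do not show the mutated codon. All 10 pluripotency markers checked were above 1 CPM (counts scaled to the library total) and summed to 7648 to 7650 CPM in WT_CTCF and 7658 to 7708 in MUT_CTCF. Endoderm markers, 7 of 10 of them above 1 CPM, summed to 527 to 532 and 507 to 525 CPM. Fibroblast markers, 3 of 10 above 1 CPM and Lum and Fap at 0, summed to 24.8 to 25.4 and 26.5 to 30.9 CPM. Neural progenitor markers, 1 of 9 matched above 1 CPM and Fabp7 at 0, summed to 63.2 to 63.3 and 68.8 to 69.7 CPM. The pluripotency, fibroblast and neural sums were thus higher in both MUT libraries than in both WT libraries and the endoderm sum was lower, and their part in the results below was not tested. Of 10 immediate early genes, 2 were called higher and 1 lower.

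In WT_CTCF the ER chaperones and folding enzymes Calr, Hspa5, Pdia4 and Hsp90b1 were the most abundant of the 10 transcripts. The stress sensor Ern1 was the least abundant. Levels are in RPKM, counts scaled to the length of the exons and to the total of the library. Calr, which encodes the lectin chaperone calreticulin, stood at 392 ± 5.69 RPKM (SD, n = 2, as for the values that follow), above 99.3% of the genes tested. Hspa5, which encodes BiP, the main ER chaperone of the HSP70 family, followed at 149 ± 3.51 RPKM. Pdia4, a protein disulfide isomerase, stood at 84.0 ± 0.628 and Hsp90b1, the ER member of the HSP90 family, at 36.8 ± 0.518 RPKM. Below them came Sdf2l1, a cofactor of BiP, at 32.1 ± 0.647 RPKM, and the transcription factor gene Xbp1 at 21.1 ± 0.429. The remaining genes were expressed at a lower level, with Herpud1 at 9.12 ± 0.487, Atf6 at 6.86 ± 0.342, Dnajb9 at 5.68 ± 0.458 and Ern1 at 2.83 ± 0.105 RPKM.

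The order was the same in MUT_CTCF, from Calr at 364 ± 6.72 RPKM to Ern1 at 3.09 ± 0.101. In neither line did the libraries of neighbouring genes in this order overlap. The nearest were Hsp90b1 and Sdf2l1, at 33.1 to 33.8 and 32.1 to 32.3 RPKM in MUT_CTCF, and Atf6 and Dnajb9, at 6.62 to 7.10 and 5.36 to 6.01 RPKM in WT_CTCF. The order depends on the length used. With the longest transcript in place of all exons of the gene, Xbp1 stood at 32.1 RPKM in WT_CTCF, level with Sdf2l1.

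**Figure D1:**
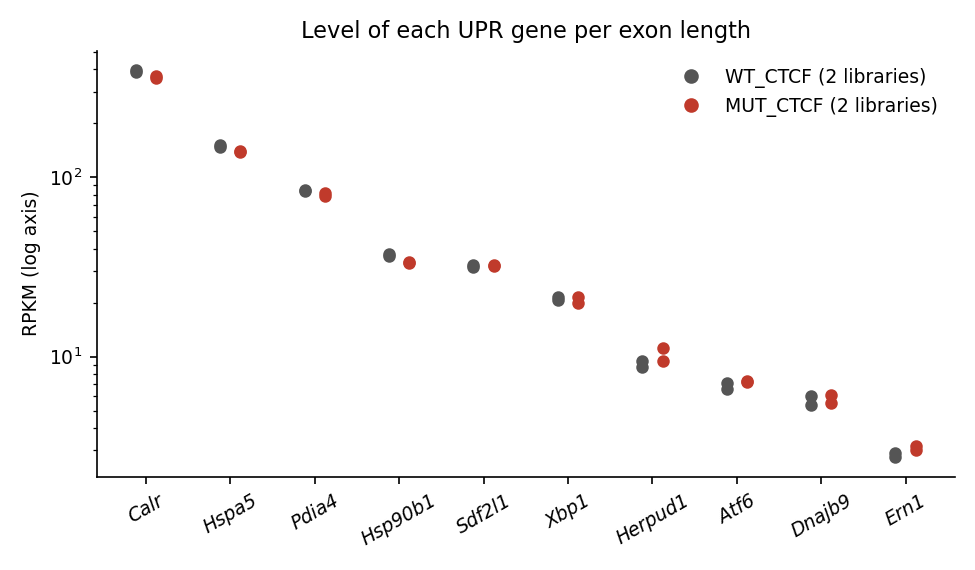
Level of each of the 10 genes in RPKM (log axis), with 1 point per library of WT_CTCF and MUT_CTCF, n = 2 each. The genes fall from Calr, at 392 and 364 RPKM on average, to Ern1, at 2.83 and 3.09 RPKM.

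In MUT_CTCF the transcripts of 3 abundant ER chaperones, Calr, Hspa5 and Hsp90b1, fell by small amounts. The other 7 genes did not pass the test. No gene of the 10 was called higher by edgeR's quasi-likelihood test, nor by DESeq2 among the 9 to which it gave an adjusted p (Dnajb9 had none), and none was higher at an unadjusted p under 0.05. Over all genes tested, 1.61% were called lower and 1.56% higher. The share called lower was 7.85% among the 1592 genes with at least as many normalized counts as Hsp90b1, the least abundant called member. Of the 4 members at that depth, 3 were called. The cut was set from the called members, so all 3 lie above it by construction. Their share there is no test against 7.85%. Both MUT libraries lay below both WT libraries in 4 of the 10 (Calr, Hspa5, Hsp90b1 and Pdia4) and above them in 2 (Ern1 and Atf6), against 22.3% of all genes tested in each direction. The study's own threshold asks for more than a 2-fold change and an unadjusted p under 0.05. None of the 10 met it, against 1.3% of all genes. The exact permutation test of 2 against 2 libraries cannot go below a two-sided p of 0.333, so each gene was tested within the fit across all genes.

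Calr (chr8:87365749-87370833 of mm9, minus strand) had 46776 and 45688 normalized counts in WT 1 and WT 2, and 43075 and 42143 in MUT 1 and MUT 2. Both MUT libraries were below both WT libraries, and the mean fell by 7.84%, from 46232 ± 769 to 42609 ± 659. The log2 fold change was -0.12 (SE 0.023, 95% interval -0.16 to -0.071, adjusted p = 0.000851 by edgeR's quasi-likelihood test). In bulk RNA, fewer cells with a transcript and less of it per cell cannot be told apart.

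Hspa5 (chr2:34627490-34632051, plus strand) had 21190 and 21839 normalized counts in the WT libraries and 19846 and 19795 in the MUT libraries. The lines did not overlap, and the MUT libraries differed from each other far less than the WT libraries did. The mean fell by 7.87% in MUT_CTCF, with a log2 fold change of -0.12 (SE 0.028, 95% interval -0.17 to -0.063, adjusted p = 0.00676 by the same edgeR test). BiP both assists folding and keeps the sensors of the response inactive while bound to them.

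Hsp90b1 (chr10:86152954-86168254, minus strand), whose product folds a narrow set of clients such as integrins and Toll-like receptors, had 6022 and 6124 normalized counts in the WT libraries and 5518 and 5434 in the MUT libraries. Its mean fell by 9.83% in MUT_CTCF, with no overlap between the lines. The log2 fold change was -0.15 (SE 0.041, 95% interval -0.23 to -0.068, adjusted p = 0.0255 by the edgeR test). Exons of the gene 1810014B01Rik on the opposite strand, which had 455 counts over all libraries, cover 10.3% of its exon bases. The strand setting of the counting is not given in the sources used here. On the same strand Hsp90b1 shares 84 exon bases with Gm15344 (142 counts) and 133 with the miRNA gene AC152453.1 (0 counts).

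Pdia4 (chr6:47746141-47763511, minus strand) had 8591 and 8475 normalized counts in the WT libraries and 8228 and 7920 in the MUT libraries. The lines did not overlap here either. The mean fell by 5.37%, less than for the genes above, and the MUT libraries lay further apart relative to the difference. The SE of its log2 fold change was smaller than that of Hsp90b1 (0.041). The log2 fold change of -0.080 (SE 0.036, 95% interval -0.15 to -0.0079) did not pass the edgeR test at an adjusted p of 0.269, although its unadjusted p was 0.0303.

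The calls of these chaperones rest on few libraries. For Calr, Hspa5 and Hsp90b1 both MUT libraries lay below both WT libraries, so leaving out 1 library could hardly turn their direction. Their direction was the same under all 11 alternative fits, but Calr lost its call without WT 1 (edgeR adjusted p = 0.0972), MUT 1 (0.387) or MUT 2 (0.439), Hspa5 without WT 2 (0.223), MUT 1 (0.451) or MUT 2 (0.477), and Hsp90b1 without any of WT 1 (0.138), WT 2 (0.232), MUT 1 (0.451) or MUT 2 (0.477). Without MUT 1 or without MUT 2 edgeR called none of all the genes tested, with 1651 and 1585 of them at an unadjusted p under 0.05. All 3 calls were also lost when no filter on low counts was applied and 23739 genes were tested (adjusted p = 0.154 for Calr, 0.198 for Hspa5 and 0.219 for Hsp90b1, at nearly the same log2 fold changes). Hsp90b1 also lost its call with library sizes alone in place of TMM factors (adjusted p = 0.0519).

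**Figure D2:**
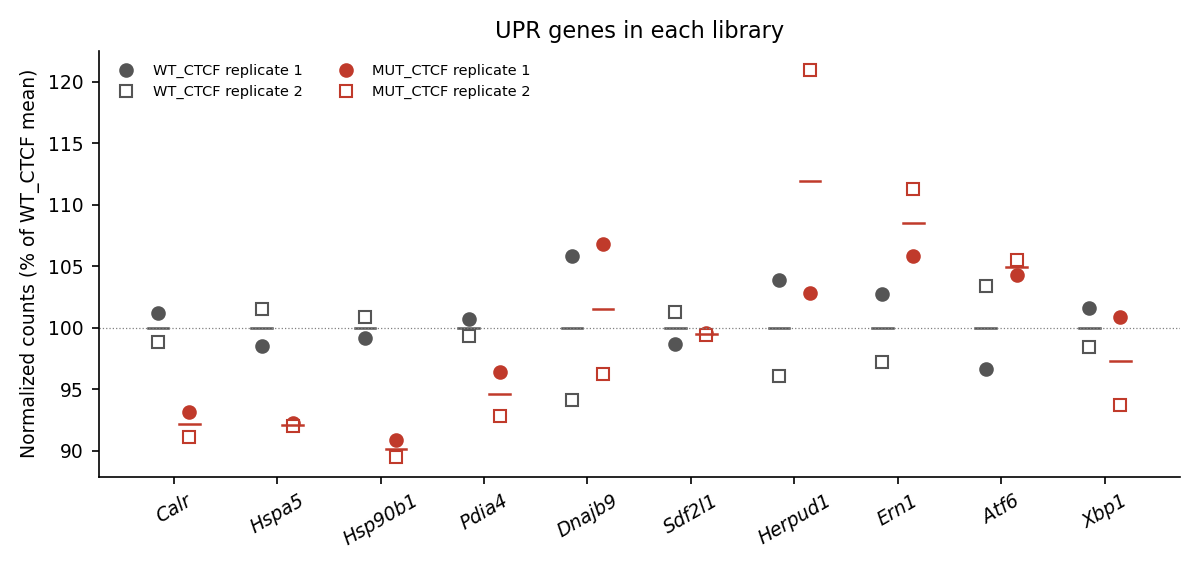
Normalized counts of each gene in every library as a percent of its WT_CTCF mean, with 1 point per library and a short bar at the mean of each line, n = 2 per line. Hsp90b1 stands at 90.9% and 89.5% in the MUT libraries, and Herpud1 at 121% in MUT 2.

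The promoters of the called chaperones are shown because their ER stress elements (ERSE) are the classical sites of the response. The ERSE, written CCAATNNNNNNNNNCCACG, pairs a CCAAT box, bound by NF-Y, with a short site for ATF6 and XBP1. It was searched on both strands in RefSeq promoters of GRCm38.p6, 250 bases before to 50 after each gene's start, after the values above were known. Of the 10 genes, 9 had a promoter in that table and Atf6 had none. The fixed letters of each match are in capitals, on whichever strand they lie, and each sequence is given in the direction of its gene, from upstream of the start.
Calr, chr8:84847062-84847111: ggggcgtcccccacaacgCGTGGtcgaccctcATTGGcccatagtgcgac
Hspa5, chr2:34772000-34772059: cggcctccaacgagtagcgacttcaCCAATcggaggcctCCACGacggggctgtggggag
Hsp90b1, chr10:86705520-86705669: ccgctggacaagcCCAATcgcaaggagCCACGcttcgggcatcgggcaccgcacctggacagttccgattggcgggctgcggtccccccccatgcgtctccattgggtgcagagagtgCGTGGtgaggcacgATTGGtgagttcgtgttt
Herpud1, chr8:94386349-94386408: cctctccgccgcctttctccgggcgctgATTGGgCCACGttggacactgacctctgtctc

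A match to the ERSE was found in 3 of the 9 promoters, those of Calr, Hspa5 and Hsp90b1, and in 39 of all 32851 promoters (0.119%). The Hspa5 match lies on the strand of the gene, 65 to 47 bases before the start. The Calr match lies on the opposite strand, and Hsp90b1 has a match on each strand. The genes with a match were thus the same as the members called lower, and all 3 were among the 4 most abundant members by RPKM. As these are classical sites of the response, their matches were known in advance. Neither the share of 0.119% nor the overlap with the calls is therefore a test. Only the fixed letters as written were searched. For the promoters with no match, this says only that these letters are not in this window. Herpud1 holds the related ERSE-II, written ATTGGNCCACG, found in 12 promoters (0.0365%). None of the 9 holds the UPRE core TGACGTGG, found in 222 promoters (0.676%), which says only that these letters are not in this window.

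The 39 promoters belonged to genes of which 23 were tested, with 0 called higher and 4 lower by edgeR and a median log2 fold change of -0.014. That is 17.4% called lower, and 3 of the 4 calls are the chaperones already reported above. Of all 16264 genes tested, 1.56% were called higher and 1.61% lower, and 7997 were below 0. Of these, 10 are in the ER gene lists of this report, with the 3 chaperones called lower, 8 below 0 and a median of -0.094. In this group both MUT libraries also lay below both WT libraries for Canx, Pdia6, Creld2 and Syvn1, none of which passed the edgeR test. Canx, the membrane-bound counterpart of calreticulin, had a log2 fold change of -0.093 (adjusted p = 0.0621) and Pdia6, a protein disulfide isomerase, one of -0.078 (adjusted p = 0.197). Creld2 stood at -0.11 (adjusted p = 0.238) and the ubiquitin ligase gene Syvn1 at -0.095 (adjusted p = 0.491). In the rest of the group, Ero1lb (0.23), Dnajc3 (0.0070) and Derl3 (-0.014), the lines overlapped. Of all genes tested, 22.3% had both MUT libraries below both WT libraries. Among the 13 genes with an ERSE outside those lists, 1 was called lower, the imprinting factor gene Zfp57 (-0.17, adjusted p = 0.000125), and the median was 0.048. Among the 156 genes of the ER lists for which no ERSE match was found, 6 were called higher and 4 lower, with a median of -0.014. They include Atf6, which had no promoter to search, and how many others had none was not counted. The genes above were chosen for this paragraph after their values were seen, and the differences between these groups were not tested.

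**Figure D3:**
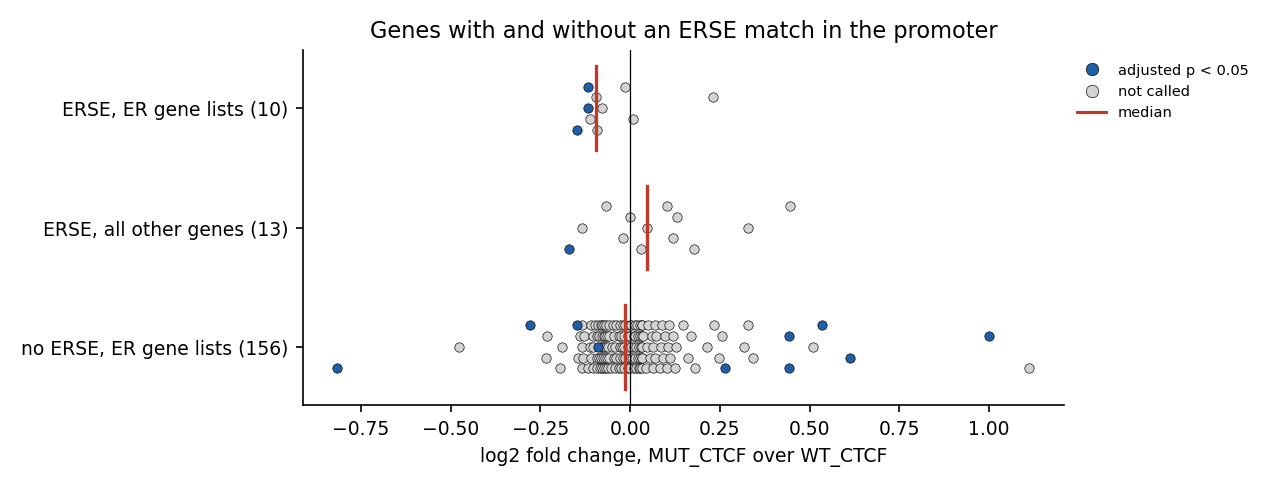
Log2 fold change of MUT_CTCF over WT_CTCF (x axis) of tested genes. Those with an ERSE match in the promoter are in the ER gene lists (10) or elsewhere (13). The third group holds ER genes for which no match was found (156), among them Atf6, which had no promoter to search. Each point is 1 gene, blue where edgeR's adjusted p was under 0.05, and red lines give the medians of -0.094, 0.048 and -0.014.

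Genes of the lumen and of protein disposal that the response also drives showed no change past the test. Dnajb9 (chr12:45306884-45311055, minus strand), a BiP cochaperone that restrains IRE1, had 460 and 409 normalized counts in the WT libraries and 464 and 418 in the MUT libraries. The lines overlapped, and the 95% interval of the log2 fold change of 0.022 ran from -0.23 to 0.27. Sdf2l1 (chr16:17130231-17132476, minus strand) had 1439 and 1476 against 1451 and 1450 normalized counts, a log2 fold change of -0.0072 with an interval of -0.15 to 0.14. The MUT libraries of Sdf2l1 lay between the WT libraries. Herpud1 (chr8:96910338-96919277, plus strand), which encodes a membrane protein of ER-associated degradation, had 906 and 838 normalized counts in the WT libraries and 897 and 1055 in the MUT libraries. Only MUT 2 was above the WT libraries, and the log2 fold change of 0.16 (SE 0.091, 95% interval -0.020 to 0.34) did not pass the edgeR test at an adjusted p of 0.409. It was 0.27 without MUT 1 and 0.039 without MUT 2.

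Of the sensors and their factor, none passed the test. Ern1 (chr11:106255964-106349166, minus strand) had 973 and 920 normalized counts in the WT libraries and 1001 and 1053 in the MUT libraries. Atf6 (chr1:172634588-172797902, minus strand) had 2026 and 2168 in the WT libraries and 2188 and 2214 in the MUT libraries. For both genes each MUT library was above each WT library, by little, with log2 fold changes of 0.12 (95% interval -0.053 to 0.29, edgeR adjusted p = 0.570) and 0.070 (-0.053 to 0.19, adjusted p = 0.664). The value of Atf6 was 0.021 without WT 1 and 0.12 without WT 2, and that of Ern1 was 0.078 without WT 2. Xbp1 (chr11:5420662-5425896, plus strand) had 2850 and 2760 normalized counts against 2829 and 2630, with MUT 1 between the WT libraries. Its log2 fold change was -0.039 (95% interval -0.15 to 0.071, adjusted p = 0.818), and counts per gene do not separate the spliced from the unspliced mRNA.

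**Figure D4:**
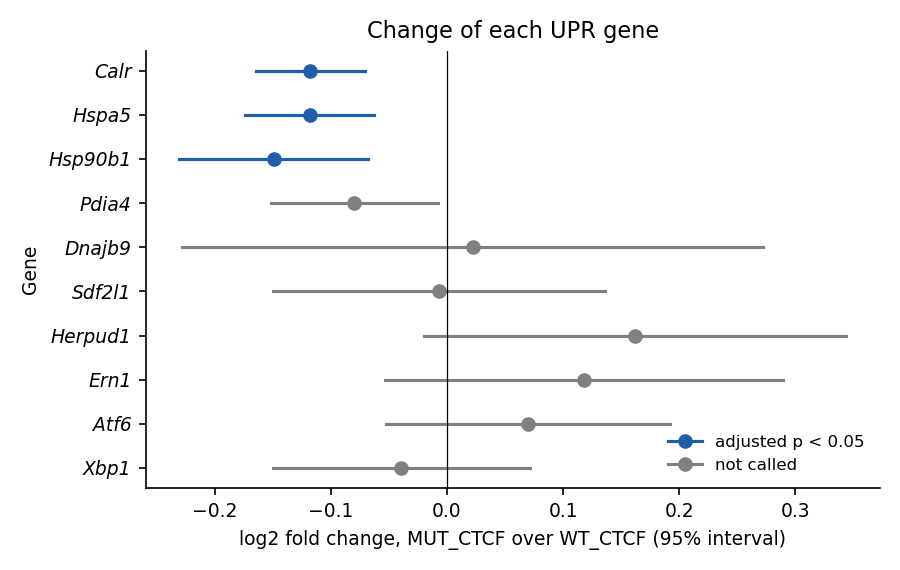
Log2 fold change of MUT_CTCF over WT_CTCF for each of the 10 genes with its 95% interval from edgeR's fit, n = 2 libraries per line. The intervals of Calr, Hspa5, Hsp90b1 and Pdia4 lie below 0, and those of the other 6 genes include 0.

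The precision differed among the genes with their abundance. The SE of the log2 fold change was 0.023 for Calr and 0.125 for Dnajb9, the gene with the fewest counts, so that a difference of the size called for Calr was not detectable for Dnajb9 at this depth. Summed over the 10 genes, normalized counts were 91231 and 90698 in the WT libraries and 85499 and 84111 in the MUT libraries. Calr, Hspa5 and Hsp90b1 made up 81.1% and 81.2% of that sum in the WT libraries and 80.0% and 80.1% in the MUT libraries, so the sum follows these genes. All 10 together took 0.222% of all counts in each WT library, and 0.211% and 0.207% in MUT 1 and MUT 2.

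A search of mm9 for near copies found 5 stretches, of Calr, Dnajb9 and Hsp90b1. The copy of Calr on chromosome 2, with 91.6% identity, lies in the pseudogene Gm14078, which had 0 counts over all libraries, and within Macrod2, which had 782. The copy of Dnajb9 on chromosome X, with 94.4% identity, lies in the pseudogene Gm6568, which had 14 counts, and within Mbtps2, which had 1525. Of the copies of Hsp90b1, a stretch of 194 bases on chromosome 1 lies within Cd247, which had 4 counts. Those on chromosome 2 (227 bases, 95.2% identity) and chromosome 12 (2041 bases, 51.7% identity) lie in no counted gene, so that no count can be given for them. Only uniquely mapped reads were counted, so reads shared with such copies were left out.

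Other genes of the pathway were read from lists set by known function, also with earlier results of these data known. Over all genes tested, edgeR called 1.56% higher and 1.61% lower. The 40 other ER chaperones and folding enzymes had 1 gene called higher and 0 lower by edgeR, 22 above 0 and a median log2 fold change of 0.0067, which lay below 0 when any 1 library was left out (-0.0098 to -0.00090). The called gene was Ero1l, an oxidase that supplies disulfide bonds to the ER and is also known to be induced by hypoxia. Ero1l had 1324 and 1471 normalized counts in the WT libraries and 1887 and 1910 in the MUT libraries, a log2 fold change of 0.44 (SE 0.069, adjusted p = 1.48e-05).

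In the 32 genes of ER-associated degradation (ERAD), 1 was called higher and 2 lower, 9 were above 0 and the median was -0.056. Ngly1, the cytosolic enzyme that strips N-glycans from retrotranslocated proteins, fell from 188 and 217 to 132 and 98.5 normalized counts (log2 fold change -0.82, adjusted p = 0.0158 by edgeR). Vcp, the ATPase that extracts ERAD substrates, fell from 24217 and 24583 to 23220 and 22630 (log2 fold change -0.090, adjusted p = 0.0465). Vcp lost its call without any single library and with library sizes in place of TMM factors (edgeR adjusted p = 0.109). Exons of 1700022I11Rik on the opposite strand, which had 7 counts over all libraries, cover 7.26% of the exon bases of Vcp.

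Among 26 other sensors and regulators of the response, 0 were called higher and 1 lower, 10 were above 0 and the median was -0.037. The called gene was Bax, an effector of mitochondrial apoptosis that also binds IRE1, with 12346 and 12338 normalized counts in the WT libraries and 10838 and 11432 in the MUT libraries (log2 fold change -0.15, adjusted p = 0.00366 by edgeR). Of the 43 genes tested of ER import and N-glycosylation, none was called by edgeR, nor by DESeq2, which gave 7 of them no adjusted p. At an unadjusted p under 0.05, 5 were higher and 6 lower, and the median was -0.020. The smallest p in this list was that of Ssr2, a subunit of the translocon-associated complex, with a log2 fold change of -0.094 and an adjusted p of 0.129.

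The list of the PERK branch and the integrated stress response held more called genes than the others, 4 higher and 1 lower of 15. These are 26.7% and 6.67% of the list, against 1.56% and 1.61% of all genes tested. In the list 12 genes were above 0 and the median was 0.11. The integrated stress response is also set off by amino acid shortage, heme deficiency and viral RNA, through kinases other than PERK. Ddit4, an inhibitor of mTORC1 that hypoxia and glucocorticoids also induce, had 2527 and 2572 normalized counts in the WT libraries and 3490 and 3895 in the MUT libraries (log2 fold change 0.53, SE 0.054, adjusted p = 9.79e-11 by edgeR). Chac1, which degrades glutathione, had 286 and 213 against 460 and 541 normalized counts (log2 fold change 1.00, SE 0.141, adjusted p = 1.5e-06). Trib3, a pseudokinase that restrains ATF4, had 1036 and 925 against 1395 and 1268 (log2 fold change 0.44, adjusted p = 0.000308).

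The other called genes of that list are shared with other stress pathways. Atf3, which is also an immediate early and p53-responsive gene, had 232 and 224 normalized counts in the WT libraries and 355 and 344 in the MUT libraries (log2 fold change 0.61, SE 0.150, adjusted p = 0.0106 by edgeR). Bbc3, the proapoptotic p53 target PUMA, fell from 1397 and 1402 to 1175 and 1130 (log2 fold change -0.28, adjusted p = 0.0249). The central genes of the branch did not pass the test. Eif2ak3, which encodes PERK, had a log2 fold change of -0.082 (SE 0.074, adjusted p = 0.679), Atf4 one of 0.0005 (SE 0.032, adjusted p = 0.998) and Ddit3, which encodes CHOP, one of 0.21 (SE 0.147, adjusted p = 0.542). For Atf4 the lines overlapped, at 12197 and 11895 against 11998 and 12103 normalized counts, and translation of its mRNA was not measured.

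Each called gene named from these lists lost its call without MUT 1 or without MUT 2, as did all genes tested. Without WT 1 the call was also lost for Vcp, Bax and Bbc3, and without WT 2 for Vcp, Ngly1, Atf3, Bax and Bbc3. With no filter on low counts only Ddit4 among them kept its call.

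**Figure D5:**
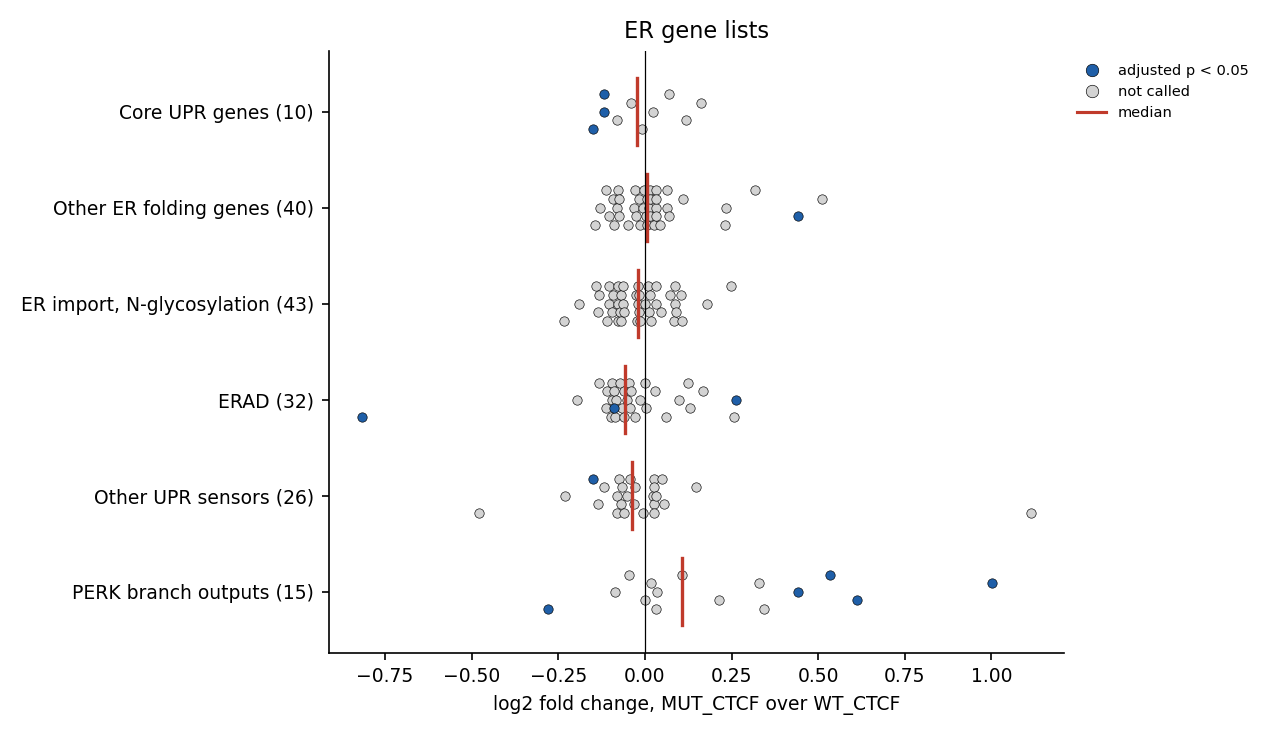
Log2 fold change of MUT_CTCF over WT_CTCF (x axis) of each tested gene of the 10 and of the other lists. Each point is 1 gene, blue where edgeR's adjusted p was under 0.05, and red lines give the medians, from -0.056 for ERAD to 0.11 for the PERK branch.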

How the data were processed

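Per the study's methods and the labels, the authors trimmed reads (Trim Galore 0.4.4), aligned them to mm9 with STAR and counted uniquely mapped reads per gene with HTSeq 0.9.1. The deposited counts are whole numbers without normalization. A deposited table of the authors' own edgeR comparison was not used. The strand setting and gene annotation of the counting are not given in the sources used here.

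Genes with low counts were removed with filterByExpr (minimum count 10), which kept 99.96% of counts. Counts were scaled by TMM (factors 0.994 to 1.01) and tested in R 4.3.3 with edgeR 4.0.16 (quasi-likelihood, condition only, Benjamini-Hochberg over all 16264 genes, threshold 0.05). Values called normalized counts are CPM from the TMM-scaled library sizes, multiplied by the mean library size. Exons came from GENCODE M1, which holds 37205 of the 37620 identifiers. Copies were searched with minimap2 2.31. The fit was tested on simulated data. The study calls the libraries biological replicates. The p-values set each difference against the spread between 2 libraries per line, moderated by edgeR with the spread estimated over all genes tested. A gene's own libraries thus set only part of the spread used in its test.

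The genes and lists were chosen with earlier results of these data known. Named genes were all members, from each other list the called genes (at most 5, by p) or else the gene with the smallest p, and Eif2ak3, Atf4 and Ddit3. Other genes given for an ERSE match were named outside this rule, after their values were seen. A result of 1 gene that this rule names is not reported here. Alternatives were DESeq2 1.42.0 as test and as size factors, library sizes alone, edgeR's exact test, other filters, a replicate block, RPKM from the longest transcript, the study's threshold, and each library left out.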

Additional observations from a re-analysis of the deposited data

How the results depend on the processing

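Calr, Hspa5 and Hsp90b1 kept their direction under all 11 alternatives, and edgeR's adjusted p ran from 4.64e-05 to 0.439, from 0.00123 to 0.477 and from 0.0102 to 0.477. With no filter on low counts 26 genes were called higher and 3 lower. The counts were then 0 for the members called lower, the other ER chaperones called higher, the ERAD genes in either direction, the other sensors called lower and the PERK branch genes called lower, and 1 for the PERK branch genes called higher. The log2 fold changes there were -0.12 for Hspa5, -0.15 for Hsp90b1, -0.12 for Calr and -0.00082 for Atf4, which changed sign. That adjustment covered 23739 genes, of which 2189 had an unadjusted p under 0.05 by edgeR's quasi-likelihood test. In the main fit 2483 of 16264 did. The part of the number of genes in the lost calls was not tested. With library sizes alone 152 genes were called lower and 1 ERAD gene lower, the medians were 0.019 for the ER chaperones and -0.044 for ERAD, Hsp90b1 was at -0.14 (adjusted p = 0.0519) and Sdf2l1 changed sign to 0.0052. DESeq2 called 129 genes higher, 1 ERAD gene lower and 2 PERK branch genes higher, and gave 9144 genes no adjusted p, among them Dnajb9, Ngly1, Chac1, Atf3 and Ddit3. With at least 10 counts in every library, 1 ER chaperone was called lower and 2 ERAD genes higher, and edgeR's exact test called 1 ERAD gene lower. At the study's threshold 0 members were called lower. The cause of these changes was not tested.

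With the replicate block edgeR called 326 genes higher and 372 lower, with 1 ER chaperone lower, 3 ERAD genes higher and 3 members lower. The differences of same-numbered libraries correlated at -0.02 over 2 pairs, and the labels tie same-numbered libraries by nothing but the number, so the block was not taken as a pairing.

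With each library left out in turn, the line with 1 library was assumed to vary like the other. Genes called ranged from 0 to 140 higher and 0 to 102 lower, members called lower from 0 to 1, ER chaperones higher from 0 to 1, ERAD genes from 0 to 1 in each direction, other sensors lower at 0, PERK branch genes higher from 0 to 4 and lower at 0. The medians ran from -0.074 to 0.0016 for the members, from -0.0098 to -0.00090 for the ER chaperones, from -0.073 to -0.039 for ERAD and from -0.040 to -0.013 for ER import. The log2 fold changes ran from -0.14 to -0.097 for Hspa5, from -0.16 to -0.14 for Hsp90b1 and from -0.14 to -0.10 for Calr. They spanned 0 for Dnajb9 (-0.061 to 0.11), Sdf2l1 (-0.026 to 0.010), Xbp1 (-0.093 to 0.011) and Atf4 (-0.019 to 0.018). With the longest transcript as length, the WT_CTCF levels were 201 RPKM for Hspa5, 46.0 for Hsp90b1, 517 for Calr, 10.9 for Herpud1, 3.32 for Ern1 and 32.1 for Xbp1. Depth limited Dnajb9, with an SE of 0.125, more than Calr, with 0.023.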
